A study of Mus musculus with 12 samples.

Results

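The genes described here are 10 regulators of the G1 phase, taken as the D-type cyclins Ccnd1, Ccnd2 and Ccnd3, the E-type cyclins Ccne1 and Ccne2, the kinases Cdk2, Cdk4 and Cdk6, and the inhibitors Cdkn1b and Cdkn2c. They were found by name among the 24343 genes of the expression tables, and all 10 had a value in each of the 12 libraries. RNA was sequenced from HT22, an immortalised mouse hippocampal neuron line, in 4 groups of 3 biological replicates. The siControl group received control siRNA in normal iron, and the siNCOA4 group received siRNA against Ncoa4, the cargo receptor that brings ferritin to the lysosome and so lets stored iron out. The siControl+DFO and siNCOA4+DFO groups received the same siRNAs and deferoxamine (DFO), an iron chelator, at 100 µM for 24 h. All 12 libraries thus came from 1 cell line that had been transfected with siRNA, and no untransfected library was used.

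A cell leaves G1 when D-type cyclins, bound to Cdk4 or Cdk6, and then E-type cyclins, bound to Cdk2, phosphorylate the retinoblastoma protein and release E2F transcription factors. INK4 proteins such as the product of Cdkn2c (p18) bind Cdk4 and Cdk6, whereas CIP/KIP proteins such as the product of Cdkn1b (p27) bind complexes of cyclins with kinases. Iron enters this pathway because ribonucleotide reductase, which makes the precursors of DNA, needs it. Chelators are known to stop dividing cells around the border of G1 and S.

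Values are fragments scaled to transcript length and library size (FPKM), so levels of different genes can be set side by side per length. Differences are on the scale of log2(FPKM + 0.1), with the 95% interval in brackets where one is given. A gene is said to have risen or fallen where the adjusted p (limma, Benjamini-Hochberg over the 11924 genes tested in that comparison) was below 0.05. The 5 comparisons of 2 groups share libraries with each other, so their results are not independent. In bulk RNA, fewer cells in a phase of the cycle and less RNA per cell cannot be told apart. The study reported altered morphology and lower viability of HT22 cells under both treatments together, and no effect on viability of either alone. The part of lower viability in the values of siNCOA4+DFO was not tested. The targeted gene, Ncoa4, lay between 6.02 and 6.46 FPKM in siControl, between 0.770 and 0.952 in siNCOA4, between 7.52 and 8.70 in siControl+DFO and between 0.850 and 1.57 in siNCOA4+DFO, so every library matched the siRNA of its label, which says nothing of the DFO label. The relative depth of the libraries, read from the smallest steps in the FPKM of low genes, spanned 1.52-fold. Replicate 3 of siNCOA4+DFO was the shallowest (0.928 of siControl replicate 1) and stood furthest from its group, and results that move without it are given with and without it. Genes for small RNAs took 38.5% to 44.6% of the summed FPKM without DFO, 45.3% to 48.6% in siControl+DFO and 50.6% to 54.3% in siNCOA4+DFO. Of 10 neuron markers, Tubb3, Eno2 and Syn1 had a mean of at least 0.5 FPKM in every group, and Map2, Rbfox3, Snap25 and Dcx were at or near 0. The summed level of the 10 markers was 16.9 to 19.3 FPKM in siControl, 13.1 to 15.4 in siNCOA4, 38.3 to 41.5 in siControl+DFO and 26.2 to 32.6 in siNCOA4+DFO. Most of the higher sums with DFO was Eno2, with means of 4.63, 21.7 and 16.1 FPKM in siControl, siControl+DFO and siNCOA4+DFO. In the same groups Tubb3 had means of 7.77, 12.5 and 7.41, and Syn1 of 5.52, 5.32 and 4.96. The sum over 5 astrocyte markers, nearly all of it Slc1a3 in siControl, was 36.4 to 46.0 FPKM in siControl, 22.5 to 27.0 in siNCOA4, 3.18 to 5.42 in siControl+DFO and 6.95 to 15.1 in siNCOA4+DFO. The sum over 5 microglia markers, nearly all of it Tmem119 in siControl, was 10.1 to 11.8 FPKM in siControl, 3.79 to 5.67 in siNCOA4, 0.985 to 1.68 in siControl+DFO and 0.457 to 2.01 in siNCOA4+DFO. Tmem119 had means of 10.7, 4.17, 0.780 and 1.15 in these groups, and the other microglia markers were at or near 0 throughout. The sum over 5 oligodendrocyte markers lay between 0.482 and 1.65 FPKM in all libraries. P2ry12 of the microglia list and Olig2 of the oligodendrocyte list were at 0 in every library. The part of these shifts in the results below was not tested.

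All 10 genes passed the filter on low values. In siControl, Cdk4 was the most abundant at 216 ± 18.3 FPKM (SD, n = 3), and Cdkn2c followed at 50.4 ± 4.35. Ccnd2 and Ccnd3 overlapped at 39.8 ± 4.48 and 39.5 ± 3.53 FPKM, Cdkn1b lay at 33.7 ± 1.13, and Ccnd1 (30.2 ± 0.480) overlapped with Cdk6 (27.0 ± 5.40), which overlapped with Cdk2 (24.0 ± 2.88). The E cyclins were lowest, with Ccne1 at 17.4 ± 0.480 FPKM and Ccne2 at 8.49 ± 0.325. Cdk4 remained the highest of the 10 in all 4 groups, but the last place changed. Ccne1 was lowest in both siNCOA4 and siNCOA4+DFO, and Cdk6 was lowest in siControl+DFO, where its libraries overlapped with those of Ccne1.

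**Figure D1:**
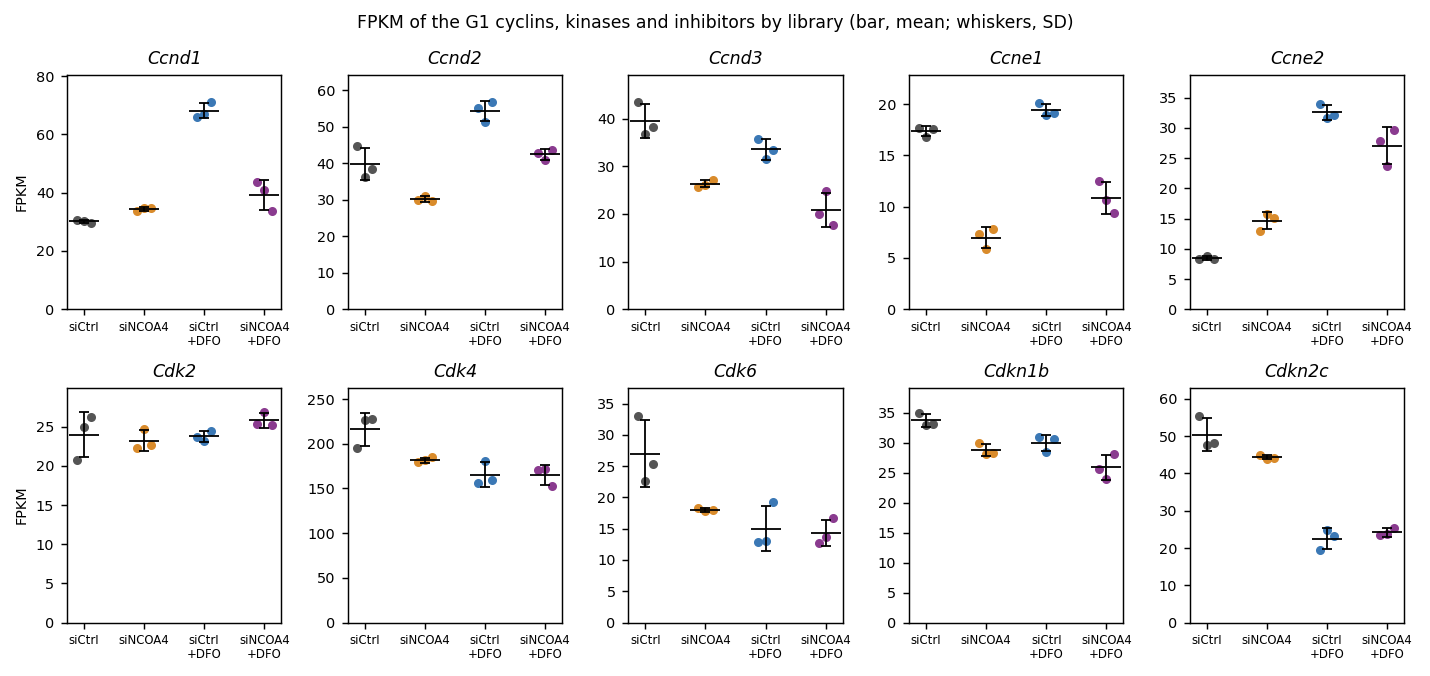
Level of each of the 10 genes (vertical axes, FPKM, starting at 0) in the 12 libraries, by group (horizontal axes); each point is 1 library, the bar is the mean and the whiskers are the SD of 3 libraries. siCtrl stands for siControl. Ccnd1 stands highest in siControl+DFO (66.1 to 71.1 FPKM), Ccne1 lowest in siNCOA4 (5.86 to 7.82 FPKM), and Cdkn2c falls to between 19.4 and 25.5 FPKM in both groups with DFO.

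Against siControl, siNCOA4 cells had 4 of the 10 genes past the test, Ccne2 higher and Ccnd2, Ccnd3 and Ccne1 lower. Over all genes tested, 11.7% passed in this comparison (4.52% higher and 7.21% lower). With DFO alone 6 of the 10 passed, 3 higher (Ccnd1, Ccnd2, Ccne2) and 3 lower (Cdk4, Cdk6, Cdkn2c), beside 53.4% of all genes (27.7% higher and 25.7% lower). With both treatments 8 of the 10 differed from siControl, 2 higher and 6 lower, beside 48.8% of all genes (25.4% higher and 23.4% lower). When siNCOA4+DFO was set against siControl+DFO, 4 of the 10 fell and none rose, beside 16.5% of all genes that passed (6.22% higher and 10.2% lower). When siNCOA4+DFO was set against siNCOA4, 5 of the 10 passed, 3 higher and 2 lower, beside 42.7% of all genes (23.1% higher and 19.6% lower). The share of the 10 genes past the test lay near that of all genes in both comparisons of DFO with no DFO and above it in both comparisons of siNCOA4 with control siRNA, a difference that was not tested. The median difference over the 10 genes was −0.24 for siNCOA4, −0.088 for DFO and −0.39 for both treatments, where the medians of all genes were 0.0048, −0.011 and 0.010. The 2 groups compared did not overlap for 9, 9, 8, 7 and 9 of the 10 genes in the 5 comparisons, in the order above, beside 32.6%, 60.7%, 54.8%, 34.8% and 52.6% of all genes. With a fold above 2 as well, 1 gene (Ccne1) was left for siNCOA4, 3 (Ccnd1, Ccne2 and Cdkn2c) for DFO and 2 (Ccne2 and Cdkn2c) for both, beside 1.78%, 18.8% and 15.2% of all genes, and 0 for the comparisons of siNCOA4+DFO with either single treatment (2.09% and 11.4%). The list was assembled with earlier results of these data known. Scaling the libraries on their FPKM without the small RNA genes raised the share of risers among all genes that passed from 38.5% to 59.3% for siNCOA4 and from 37.8% to 67.1% for siNCOA4+DFO against siControl+DFO (50.6% with quantile scaling).

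**Figure D2:**
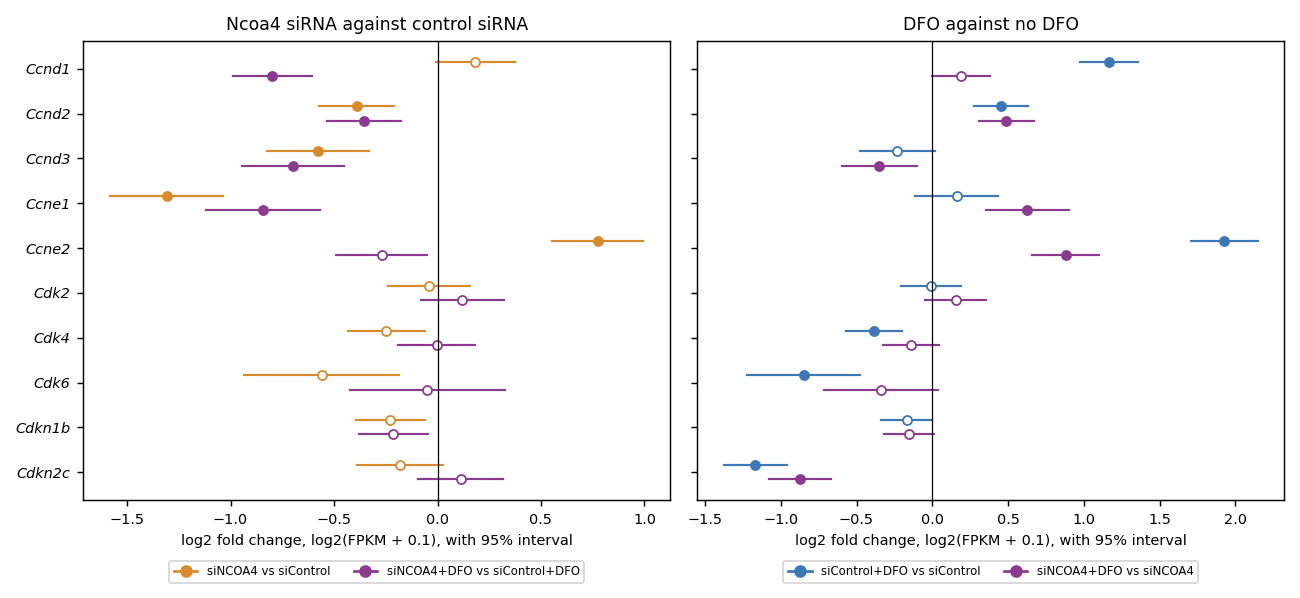
Difference in log2(FPKM + 0.1) (horizontal axes) of each gene (vertical axis) between siNCOA4 and control siRNA, without and with DFO (left), and between DFO and no DFO, with control siRNA and with siNCOA4 (right). Points are estimates over 3 against 3 libraries, lines are 95% intervals, and filled points have an adjusted p below 0.05 (limma). Ccnd1 and Ccne2 lie on opposite sides of 0 in the left panel, while Ccnd2, Ccnd3 and Ccne1 lie below 0 both times.

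Among the D-type cyclins, which carry growth signals to Cdk4 and Cdk6, Ccnd1 had a response to siNCOA4 that differed with DFO. Its gene lies on chromosome 7 (GRCm38, chr7:144929931-144939925, minus strand). Its values were 30.7, 30.2 and 29.7 FPKM in siControl, 33.6, 34.7 and 34.6 in siNCOA4, 66.1, 67.1 and 71.1 in siControl+DFO, and 43.6, 40.7 and 33.6 in siNCOA4+DFO. The siControl+DFO libraries stood above all others, and replicate 3 of siNCOA4+DFO lay level with the lowest siNCOA4 library. DFO raised Ccnd1 by 1.17 on the log2 scale [0.98 to 1.36], or 2.25-fold, in cells with control siRNA (limma adjusted p = 4.67e-07). In cells with siNCOA4 the same treatment gave 0.19 [−0.0044 to 0.38] (limma adjusted p = 0.107), and 0.30 without replicate 3 of siNCOA4+DFO, where it passed (limma adjusted p = 0.00406). Ccnd1 was 1.74-fold lower in siNCOA4+DFO than in siControl+DFO (−0.80 [−0.99 to −0.61], limma adjusted p = 2.34e-04), whereas siNCOA4 without DFO gave 0.18 [−0.0082 to 0.37] (limma adjusted p = 0.210). The 2 effects of siNCOA4 differed by −0.98 ± 0.12 (SE), and this interaction passed (limma adjusted p = 0.00375), as did 2.1% of all genes (0.671% above 0 and 1.43% below). Of the 10 genes, 2 had an interaction past the test, both below 0, and 1 of them, Ccne2, exceeded a 2-fold difference, as did 0.813% of all genes.

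Ccnd2 (chr6:127125162-127152193, minus strand) had opposite differences with siNCOA4 and with DFO. It lay at 44.8, 36.1 and 38.4 FPKM in siControl, at 29.9, 31.1 and 29.5 in siNCOA4, at 55.0, 51.3 and 56.6 in siControl+DFO, and at 42.9, 40.8 and 43.6 in siNCOA4+DFO. No library of siNCOA4 reached one of siControl, and the libraries with both treatments overlapped with siControl. Ccnd2 fell with siNCOA4, by 0.39 on the log2 scale (limma adjusted p = 0.0103), rose with DFO, by 0.45 (limma adjusted p = 5.99e-04), and with both was 0.098 [−0.082 to 0.28] from siControl (limma adjusted p = 0.348). Its fall with siNCOA4 did not pass when the libraries were scaled without small RNA genes (−0.32, limma adjusted p = 0.0556). The same held for siNCOA4+DFO against siControl+DFO, where −0.35 (limma adjusted p = 0.0132) became −0.23 (limma adjusted p = 0.128), and −0.24 under quantile scaling (limma adjusted p = 0.0968). Ccnd2 rose by 0.49 with DFO in siNCOA4 cells (limma adjusted p = 4.87e-04).

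Ccnd3 (chr17:47505051-47599691, plus strand) lay at 43.5, 36.8 and 38.3 FPKM in siControl, at 25.8, 26.1 and 27.2 in siNCOA4, at 35.8, 31.5 and 33.5 in siControl+DFO, and at 20.0, 24.8 and 17.7 in siNCOA4+DFO. The libraries of the 4 groups did not overlap, and siNCOA4+DFO was lowest. Ccnd3 fell by 0.58 with siNCOA4 (1.49-fold lower, limma adjusted p = 0.00677), by 0.70 with siNCOA4 in DFO (limma adjusted p = 0.00215), and by 0.93 with both treatments against siControl (1.90-fold lower, limma adjusted p = 3.04e-05). DFO alone gave −0.23 (limma adjusted p = 0.105), and DFO in siNCOA4 cells gave −0.35 (limma adjusted p = 0.0254), a call that was lost without replicate 3 of siNCOA4+DFO (−0.24, limma adjusted p = 0.0917), and also without replicate 1 of siNCOA4+DFO (limma adjusted p = 0.0718) or replicate 2 or 3 of siNCOA4 (limma adjusted p = 0.0541 and 0.0757). It was also lost, at the same size, when the 2 groups were fitted alone (limma adjusted p = 0.0594). The −0.23 with DFO passed without replicate 2 of siNCOA4+DFO (limma adjusted p = 0.0465) and, as −0.36, under quantile scaling (limma adjusted p = 0.0177).

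The summed level of the 3 D cyclins was 109 ± 8.38 FPKM (SD, n = 3) in siControl, 90.9 ± 1.36 in siNCOA4, 156 ± 5.74 in siControl+DFO and 103 ± 6.65 in siNCOA4+DFO. The sums in siControl and siNCOA4+DFO overlapped, but their makeup differed. Ccnd3 gave 36.0% ± 0.454 of the sum in siControl and 20.3% ± 2.65 in siNCOA4+DFO, while Ccnd1 went from 27.7% ± 1.75 to 38.2% ± 2.79. These shares did not overlap between the 2 groups. Sums and shares are given as a description and were not tested.

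The E-type cyclins, which bind Cdk2 and act later in G1, parted from each other under siNCOA4. Ccne1 (chr7:38097984-38107534, minus strand) lay at 17.7, 16.8 and 17.6 FPKM in siControl, at 7.32, 5.86 and 7.82 in siNCOA4, at 20.1, 19.0 and 19.2 in siControl+DFO, and at 12.5, 10.7 and 9.36 in siNCOA4+DFO. Both groups with siNCOA4 lay wholly below both groups with control siRNA. Ccne1 fell by 1.31 [−1.58 to −1.04] with siNCOA4, or 2.48-fold (limma adjusted p = 6.67e-05), and by 0.84 with siNCOA4 in DFO (limma adjusted p = 0.0013). DFO alone gave 0.16 [−0.11 to 0.43] (limma adjusted p = 0.304), and DFO in siNCOA4 cells raised it by 0.63 (limma adjusted p = 0.00162). The interaction was 0.47 ± 0.18 (SE) and did not pass (limma adjusted p = 0.190), so the responses of Ccne1 to DFO in the 2 backgrounds were not shown to differ.

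Ccne2 (chr4:11191351-11204779, plus strand) lay at 8.28, 8.86 and 8.31 FPKM in siControl, at 13.0, 15.7 and 15.1 in siNCOA4, at 34.0, 31.6 and 32.1 in siControl+DFO, and at 27.8, 23.7 and 29.7 in siNCOA4+DFO. The 4 groups did not overlap. It rose in each treatment against siControl, by 0.77 with siNCOA4 (1.71-fold, limma adjusted p = 4.76e-04), by 1.93 with DFO (3.80-fold, limma adjusted p = 2.63e-08) and by 1.66 with both (3.15-fold, limma adjusted p = 1.38e-07). Adding the 2 single effects would give 2.70 on the log2 scale. The effect of siNCOA4 with DFO was −0.27 [−0.49 to −0.049] (limma adjusted p = 0.0885), so it had the opposite sign to the effect without DFO, and the difference of −1.04 ± 0.14 (SE) passed (limma adjusted p = 0.00439). Without replicate 3 of siNCOA4+DFO this interaction was −1.12 and that of Ccnd1 was −0.87, and both still passed (limma adjusted p = 0.00522 and 0.00138).

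The ratio of Ccne2 to Ccne1, taken per length, was 0.468, 0.527 and 0.472 in siControl, so Ccne1 was the more abundant E cyclin in each of these libraries. It was 1.78, 2.69 and 1.93 in siNCOA4, 1.69, 1.66 and 1.67 in siControl+DFO, and 2.22, 2.22 and 3.18 in siNCOA4+DFO, above 1 in all 9 treated libraries. The sum of both was 25.9 ± 0.156 FPKM (SD, n = 3) in siControl, 21.6 ± 1.31 in siNCOA4, 52.0 ± 1.89 in siControl+DFO and 37.9 ± 3.12 in siNCOA4+DFO. Under siNCOA4 the ratio moved through a fall of Ccne1 and a rise of Ccne2, and under DFO only the rise of Ccne2 passed the test.

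**Figure D3:**
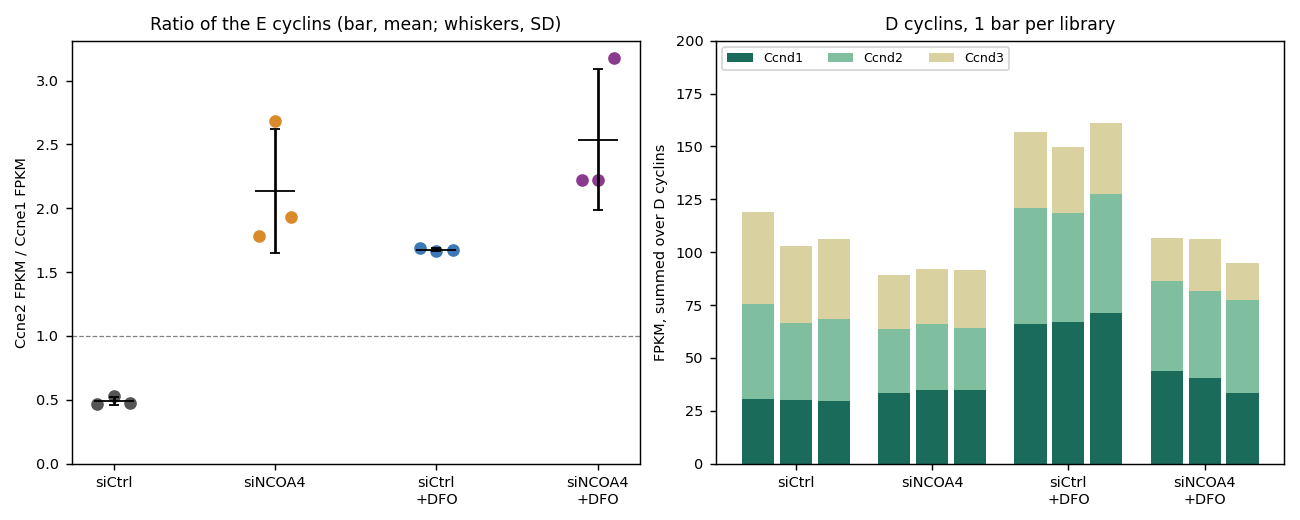
Ratio of Ccne2 to Ccne1 FPKM in each library (left, with the mean and SD of 3 libraries; the dashed line marks equal levels) and FPKM of Ccnd1, Ccnd2 and Ccnd3 stacked for each library in the order of replicates (right). The ratio is below 1 in siControl (0.468 to 0.527) and above it in the other groups, and the stacks are tallest in siControl+DFO with a mean of 156 FPKM.

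Of the kinases, Cdk2, the partner of the E cyclins, did not pass in any comparison. Its gene lies at chr10:128697939-128705031 on the minus strand. It ranged from 20.7 to 26.2 FPKM in siControl, from 22.3 to 24.8 in siNCOA4, from 23.1 to 24.4 in siControl+DFO and from 25.3 to 26.9 in siNCOA4+DFO. Its differences from siControl were −0.041 [−0.24 to 0.16] with siNCOA4, −0.0072 [−0.21 to 0.19] with DFO and 0.11 [−0.087 to 0.31] with both.

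Cdk4 and Cdk6, the partners of the D cyclins, fell with DFO in cells with control siRNA, and DFO in siNCOA4 cells gave −0.14 for Cdk4 (limma adjusted p = 0.204) and −0.34 for Cdk6 (limma adjusted p = 0.134). Cdk4 (chr10:127063534-127067920, plus strand) lay at 195, 226 and 227 FPKM in siControl, at 179, 181 and 185 in siNCOA4, at 156, 181 and 159 in siControl+DFO, and at 170.3, 172 and 152 in siNCOA4+DFO. The siControl libraries were above all others. Cdk4 fell by 0.39 with DFO (limma adjusted p = 0.00231) and by 0.39 with both treatments (limma adjusted p = 0.00243), and siNCOA4 alone gave −0.25 (limma adjusted p = 0.0858), which passed as −0.32 without replicate 1 of siControl (limma adjusted p = 0.0387). Under quantile scaling the difference with both treatments was −0.20 and no longer passed (limma adjusted p = 0.055).

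Cdk6 (chr5:3341485-3531008, plus strand) varied most between replicates of siControl and of siControl+DFO, where its SD was 20.0% and 24.3% of the mean. It lay at 33.0, 22.6 and 25.4 FPKM in siControl, at 18.4, 17.8 and 18.0 in siNCOA4, at 12.9, 13.0 and 19.2 in siControl+DFO, and at 12.7, 13.7 and 16.7 in siNCOA4+DFO. All siControl libraries lay above all treated ones, and replicate 3 of siControl+DFO lay above siNCOA4. Cdk6 fell by 0.85 [−1.22 to −0.47] with DFO (1.80-fold lower, limma adjusted p = 0.00126) and by 0.90 with both (1.86-fold lower, limma adjusted p = 9.35e-04). With siNCOA4 it was −0.56 [−0.94 to −0.19] (limma adjusted p = 0.0553), which passed without replicate 2 of siControl (−0.68, limma adjusted p = 0.0475) and, at the same −0.56, when replicate 3 of siControl+DFO or of siNCOA4+DFO was left out of the shared estimate of spread (limma adjusted p = 0.0275 and 0.0459). It passed as well among genes with at least 2 FPKM in at least 3 libraries (limma adjusted p = 0.0494), and without replicate 1 of siControl it was −0.41 (limma adjusted p = 0.188). The ratio of Cdk4 to Cdk6 was 8.29 ± 2.13 (SD, n = 3) in siControl and between 10.1 and 11.7 in mean in the other groups, and the range of siControl overlapped with that of each other group.

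Both inhibitors among the 10 genes were lower, not higher, in the treated groups where they passed the test. Cdkn2c (chr4:109660876-109667189, minus strand) lay at 55.5, 47.6 and 48.3 FPKM in siControl, at 44.9, 44.0 and 44.1 in siNCOA4, at 19.4, 24.8 and 23.2 in siControl+DFO, and at 23.4, 23.7 and 25.5 in siNCOA4+DFO. The libraries with DFO formed 1 low range. Cdkn2c fell by 1.17 [−1.37 to −0.96] with DFO (2.25-fold lower, limma adjusted p = 9.06e-07), by 0.87 with DFO in siNCOA4 cells (limma adjusted p = 1.77e-05) and by 1.06 with both against siControl (2.08-fold lower, limma adjusted p = 2.90e-06). With siNCOA4 alone it was −0.18 [−0.39 to 0.024] (limma adjusted p = 0.248).

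Cdkn1b (chr6:134920401-134925513, plus strand) lay at 35.0, 32.9 and 33.1 FPKM in siControl, at 29.9, 28.2 and 28.2 in siNCOA4, at 30.8, 28.4 and 30.6 in siControl+DFO, and at 25.7, 23.9 and 28.1 in siNCOA4+DFO. Every treated library was below every siControl library. Single treatments gave −0.23 with siNCOA4 (limma adjusted p = 0.0768) and −0.17 with DFO (limma adjusted p = 0.0807), and both together lowered it by 0.38 [−0.55 to −0.22] (limma adjusted p = 0.0013). Without replicate 3 of siNCOA4+DFO both single effects passed at the same size (limma adjusted p = 0.0443 and 0.0497), and so did siNCOA4+DFO against siControl+DFO, with −0.27 in place of −0.21 (limma adjusted p = 0.0392 in place of 0.077), and against siNCOA4, with −0.22 in place of −0.15 (limma adjusted p = 0.0374 in place of 0.126). Under quantile scaling DFO alone gave −0.29 and passed (limma adjusted p = 0.0111), as did siNCOA4+DFO against siNCOA4, with −0.23 (limma adjusted p = 0.0421).

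With DFO, Ccnd2 and Ccne2 rose and Cdkn2c fell both in cells with control siRNA and in cells with siNCOA4. With siNCOA4, Ccnd2, Ccnd3 and Ccne1 fell both without and with DFO. Setting the combined effect beside the sum of the 2 single effects on the log2 scale, Ccnd2 had 0.098 beside 0.062, Ccnd3 had −0.93 beside −0.81, and Cdkn1b had −0.38 beside −0.40. Further from the sum, Ccne1 had −0.68 beside −1.15, Cdk6 −0.90 beside −1.41, and Cdkn2c −1.06 beside −1.35. Cdk4 had −0.39 beside −0.63, and Cdk2 had 0.11 beside −0.048. Ccnd1 had 0.37 beside 1.35 and Ccne2 had 1.66 beside 2.70. Interactions of the other 8 genes ranged from −0.12 for Ccnd3 to 0.51 for Cdk6 and did not pass (limma adjusted p from 0.190 to 0.959).

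The other genes that control the step from G1 to S were taken as a list of 50, of which 46 were tested. Cdkn1c, Cdkn2a and Cdkn2b, which encode the remaining inhibitors of these families apart from Cdkn1a and Cdkn2d, were listed at 0 in all 12 libraries, and E2f6 did not exceed 0.258 FPKM. Cdkn2d, an INK4 gene named here after its values were seen, fell with DFO as Cdkn2c did. Its mean was 12.7 FPKM in siControl and 6.15 in siControl+DFO (−1.05, limma adjusted p = 2.80e-04), and siNCOA4 gave 0.11 (limma adjusted p = 0.758). The median difference over the 46 was −0.038 with siNCOA4, −0.058 with DFO and −0.15 with both, beside the medians of all genes given above. With siNCOA4, 5 of the 46 passed (2 higher, 3 lower), beside 11.7% of all genes, and 8 passed without replicate 3 of siNCOA4+DFO. Cdkn1a, which encodes the inhibitor p21, rose by 1.82 (3.54-fold, limma adjusted p = 2.45e-05), and Ccng1, a cyclin induced by p53, rose by 1.39. Mybl2, the B-Myb factor that joins the MuvB core in S phase, fell by 1.25, and the other two to fall, named because the count was small, were Ccny (−1.03) and E2f8 (−0.39).

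With DFO 34 of the 46 passed (18 higher, 16 lower) and with both treatments 28 (11 higher, 17 lower), beside the 53.4% and 48.8% of all genes given above. Cdkn1a lay at 12.7, 16.2 and 16.1 FPKM in siControl, at 49.8, 54.6 and 55.0 in siNCOA4, at 435, 467 and 433 in siControl+DFO, and at 409, 364 and 247 in siNCOA4+DFO. The groups did not overlap, and siControl+DFO was highest, though the difference of Cdkn1a between siNCOA4+DFO and siControl+DFO did not pass. Cdkn1a rose by 4.89 with DFO (29.6-fold, limma adjusted p = 6.53e-10) and by 4.47 with both (22.1-fold, limma adjusted p = 2.05e-09), and its interaction of −2.24 ± 0.22 (SE) passed (limma adjusted p = 8.74e-04), as did that of Ccng1 (−1.03). These were the 2 of the 46 with an interaction past the test, and 4 passed without replicate 3 of siNCOA4+DFO. Without that library Cdkn1a rose by 4.68 with both treatments and its interaction was −2.03, and both still passed. The ratio of Cdkn1b to Cdkn1a was 2.28 ± 0.405 (SD, n = 3) in siControl, 0.543 ± 0.0491 in siNCOA4, 0.0675 ± 0.00576 in siControl+DFO and 0.0807 ± 0.0287 in siNCOA4+DFO, so Cdkn1b was the more abundant of the 2 CIP/KIP transcripts in siControl alone.

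Rb1, the gene of the retinoblastoma protein, had a mean of 5.17 FPKM in siControl, 6.29 in siNCOA4, 15.0 in siControl+DFO and 18.3 in siNCOA4+DFO. It rose by 1.52 with DFO (2.87-fold) and by 1.80 with both (3.49-fold, limma adjusted p = 5.67e-07), while siNCOA4 gave 0.27 (limma adjusted p = 0.224). E2f1 rose less, by 0.33 with DFO (limma adjusted p = 0.0149) and by 0.40 with both (limma adjusted p = 0.00552). The 2 relatives of Rb1 on the list, named here after their values were seen, went the other way with DFO. Rbl1 fell by 0.38 (limma adjusted p = 0.0179) and Rbl2 by 0.61 (limma adjusted p = 0.00354), and neither passed with both treatments. Of the 9 E2F factors and partners tested, 5 rose and 1 fell with DFO, and 2 rose and 3 fell with both treatments. Over all genes, 27.7% rose and 25.7% fell with DFO, and 25.4% rose and 23.4% fell with both. Among the 6 genes of the MuvB core and its partner, 4 rose and 1 fell with DFO, with Lin52 up by 1.65 from a low mean of 1.91 FPKM, beside the same shares. The 5 later cyclins and kinases on the list, named here after their values were seen, all passed with DFO, beside 53.4% of all genes, where Ccna2, Ccnb1, Ccnb2 and Cdk1 fell and Ccnf rose.

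When siNCOA4+DFO was set against siControl+DFO, 12 of the 46 passed (3 higher, 9 lower), beside 16.5% of all genes. The 3 with the largest differences all fell, Mybl2 by 1.19 (limma adjusted p = 6.09e-04), Lin37 by 1.04 (limma adjusted p = 0.0192) and E2f2 by 0.84 (limma adjusted p = 0.0133). Lin37 did not pass without replicate 1 of siControl+DFO (limma adjusted p = 0.0701) or without replicate 2 (limma adjusted p = 0.0683), nor E2f2 without replicate 3 (limma adjusted p = 0.0542). Without replicate 3 of siNCOA4+DFO, Lin37 was −0.69 (limma adjusted p = 0.0413). The count was 5 when the comparison was fitted on these 6 libraries alone, where Lin37 was not among them (limma adjusted p = 0.0941), and 7 without replicate 1 or replicate 2 of siControl+DFO. When siNCOA4+DFO was set against siNCOA4, 29 of the 46 passed (14 higher, 15 lower), beside 42.7% of all genes, led by Cdkn1a (2.64), Rb1 (1.54) and Fbxw7 (1.23), the last of which encodes the subunit that marks cyclin E for degradation.

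**Figure D4:**
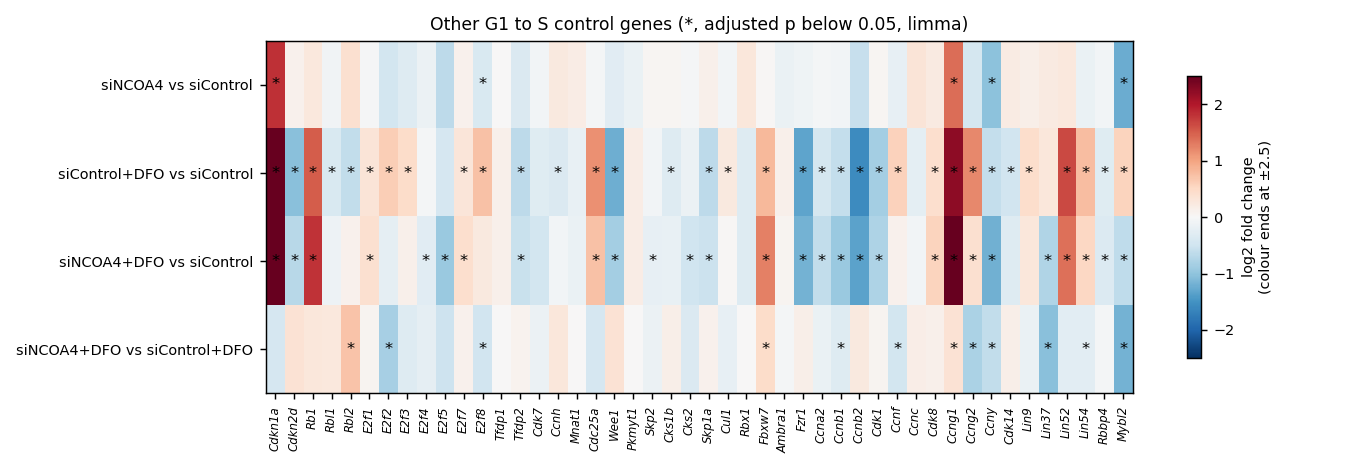
Difference in log2(FPKM + 0.1), shown as colour that ends at ±2.5, for the 46 tested genes of the G1 to S list (columns) in 4 comparisons (rows); stars mark an adjusted p below 0.05 (limma). Cdkn1a and Ccng1 are higher in all 3 comparisons with siControl, Rb1 is higher in both that add DFO, and stars are few in both comparisons of siNCOA4 with control siRNA (5 and 12 of 46).

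For each of the 10 genes past the test with a fold above 2 in any comparison, the genes with the most similar pattern were looked up by the root mean square difference in centred log2(FPKM + 0.1) over the 12 libraries, among 10835 genes with a mean of at least 1 FPKM. Ccnd1 was closest to Coq10b (0.126) and Map3k14 (0.128), and Ccne1 to Inafm2 (0.158) and Gas2l1 (0.161). Ccne2 was closest to Rbm48 (0.148) and Clcn3 (0.159), and Cdkn2c to Myo18a (0.0835) and Lasp1 (0.0949). None of these nearest genes was another of the 10. Among the 10 genes themselves the closest pair was Cdk4 and Cdkn1b (0.164), and the 2 E cyclins were far apart (0.933).

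Several of the 10 genes share exonic sequence with a neighbour on the other strand, so their FPKM rests in part on how strand was counted, which the sources used here do not give. In GENCODE vM21 the share of 75-base exonic windows also present in another gene was 28.7% for Cdk4 (Tspan31), 26.1% for Ccnd1 (LTO1, named Oraov1 in the expression tables), 15.9% for Ccne2 (Ints8) and 15.3% for Ccnd3 (Bysl and the pseudogene Ccnd3-ps). It was 4.8% for Ccnd2, 0.559% for Cdk6, and 0% for Ccne1, Cdk2, Cdkn1b and Cdkn2c. Tspan31 fell beside Cdk4, by 0.44 with DFO (limma adjusted p = 1.62e-04) and by 0.47 with both (limma adjusted p = 1.06e-04). Ints8 fell by 0.33 with DFO (limma adjusted p = 0.0217), where Ccne2 rose. Oraov1 rose by 0.67 with siNCOA4 (limma adjusted p = 0.0418) and by 0.64 with DFO (limma adjusted p = 0.014), from a mean of 6.03 FPKM. With both treatments it rose by 0.84 (limma adjusted p = 0.00300). With siNCOA4 in DFO, where Ccnd1 fell, Oraov1 was 0.21 (limma adjusted p = 0.501). Its interaction was −0.46 and did not pass (limma adjusted p = 0.405). Bysl was −0.059 with siNCOA4 (limma adjusted p = 0.849) and 0.0075 with siNCOA4 in DFO (limma adjusted p = 0.981), where Ccnd3 fell. Bysl did fall by 0.56 with DFO (limma adjusted p = 0.00615), where Ccnd3 did not pass. With both treatments, where Ccnd3 fell, Bysl fell by 0.55 (limma adjusted p = 0.00727), and with DFO in siNCOA4 cells by 0.49 (limma adjusted p = 0.0159). The part of the neighbours in the values of Cdk4, Ccnd1, Ccne2 and Ccnd3 was not tested.

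RefSeq promoters (GRCm38.p6, 250 bases before to 50 after a start site) were found for 7 of the 10 genes, 9 promoters in all, and not for Ccnd1, Ccnd2 and Ccne2. They were searched on both strands for the E2F letters TTNNCGC, counted where each N is C or G, which 9.57% of 32851 promoters hold. Only the promoters of Cdkn2c, which fell with DFO, and Cdk2, which did not pass, held a match. The sites are shown because they set a gene that moved beside one that was not seen to move, with the E2F letters (or their reverse complement, for Cdk2) in capitals and the strand of the gene read 5′ to 3′.
Cdkn2c, chr4:109666763-109666792, minus strand: ggggcccggccTTCCCGCtcccgcggcgcc
Cdk2, chr10:128705173-128705202, minus strand: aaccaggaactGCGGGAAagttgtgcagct
The match in Cdkn2c begins 25 bases before the start site and that in Cdk2 begins 140 bases before it, and Cdk2 held 3 matches in all. The core of the hypoxia response element (ACGTG or GCGTG, which overlap on the 2 strands of a palindrome) was in 43.8% of all promoters and in 8 of these 9. There were 8 matches in Cdk4, 4 in Ccne1 and 4 in the other Cdkn2c promoter. The 8 in Cdk4 lay in pairs at neighbouring bases, each pair a palindrome counted on both strands, while those in Ccne1 lay apart. The cell cycle homology letters TTTGAA were in 17.9% of all promoters and in none of the 9. A match is a description of the letters and not a bound site.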

How the data were processed

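Total RNA from the 12 HT22 cultures was made into libraries with a stranded low-input kit, and 75-base pairs were sequenced. The authors deposited FPKM per gene, 1 table a library, per the labels with Trimmomatic 0.33, FastQC, HISAT2 2.1.0, featureCounts and edgeR on mm10. Which of these gave the FPKM, the annotation and the strand setting are not given in the sources used here, so effects of multimapping and strand on single values are unknown. Because the files hold FPKM and not counts, the authors' edgeR test was replaced by limma 3.58.1 (R 4.3.3) on log2(FPKM + 0.1), with 1 means model of the 4 groups over 12 libraries, a mean-variance trend and Benjamini-Hochberg adjustment within each comparison. Of 24347 entries, 4 that share a name were left out, and genes with at least 0.5 FPKM in at least 3 libraries were tested (11924, of 24343). The deposited tables were tested as they stand, and the script was checked on simulated data.

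Read totals are not in these files. Relative depth was recovered from the value of 1 read in low genes, and absolute depth, and so counting error, is unknown. Groups and replicate numbers came from the sample labels. Replicates are biological per the labels. The named genes were all 10 G1 genes, Ncoa4, Cdkn1a, Rb1, E2f1 and, from the list of 50 in each comparison, the 3 largest differences past the test, with 2 nearest genes for each of the 10 past the test with a fold above 2. Cdkn2d, Rbl1, Rbl2 and the later cyclins and kinases were named after their values were seen. The genes and lists, neuron, astrocyte, microglia and oligodendrocyte markers included, were chosen with earlier results of these data known. Loci and shared windows came from GENCODE vM21, and promoters from RefSeq. Alternatives changed the pseudocount (1, 0.01), the filter (none, 2 FPKM), the scaling (median of ratios, quantile, without small RNA genes), the moderation, the groups fitted, a replicate block, a fold above 2, and left out each library in turn. Tables were read with Python 3.11.15, pandas 2.3.3 and numpy 2.4.6, and drawn with matplotlib 3.10.9.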

Additional observations from a re-analysis of the deposited data

Results flagged for a closer look

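The effect of Ncoa4 siRNA on Ccnd1 differed between cells with and without DFO. It was 0.18 without DFO, which did not pass (limma adjusted p = 0.210), though all 3 siNCOA4 libraries lay above the siControl libraries. With DFO it was −0.80 (limma adjusted p = 2.34e-04), and all 3 siNCOA4+DFO libraries lay below those of siControl+DFO. The groups in these 2 comparisons did not overlap for 32.6% and 34.8% of all genes. The difference between the effects was −0.98 ± 0.12 (SE, limma adjusted p = 0.00375 over 11924 genes), with a range of −1.06 to −0.87 when each library was left out in turn.

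The effect of Ncoa4 siRNA on Ccne2 differed as well. It was 0.77 without DFO (higher in 3 of 3 libraries, limma adjusted p = 4.76e-04). With DFO it was −0.27 (lower in 3 of 3 libraries), which did not pass (limma adjusted p = 0.0885). Other settings of the processing gave −0.28 to −0.14. The difference between the effects was −1.04 ± 0.14 (SE, limma adjusted p = 0.00439), with a range of −1.12 to −0.95 when each library was left out in turn. A difference was thus shown, but not a fall of Ccne2 with siNCOA4 in DFO. Both genes rose with DFO alone, by 1.17 and 1.93. The share of FPKM in small RNA genes was highest in siNCOA4+DFO (50.6% to 54.3%). Scaled without those genes, the differences were −0.93 for Ccnd1 and −0.99 for Ccne2, and both passed.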

How the results depend on the processing

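No count of the 10 G1 genes moved by over 1.5 times under another pseudocount, filter, scaling, moderation or choice of groups. With a fold above 2 required as well, the counts were 1 for siNCOA4, 3 for DFO, 2 for both against siControl, 0 for siNCOA4+DFO against siControl+DFO, 0 against siNCOA4 and 1 for the interaction. For the 46 other genes that rule left 10, 8, 2 and 6 for DFO, both, siNCOA4+DFO against siControl+DFO and siNCOA4+DFO against siNCOA4. Fitting the compared groups alone left 5 of the 46 for siNCOA4+DFO against siControl+DFO.

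Leaving out each library in turn gave 4 to 6 of the 10 genes for siNCOA4, 6 to 7 for DFO, 8 in every case for both, 4 to 5 for siNCOA4+DFO against siControl+DFO, 4 to 6 against siNCOA4 and 2 in every case for the interaction. Of the 46, it gave 4 to 8, 29 to 35, 23 to 27, 7 to 12, 25 to 31 and 2 to 4. The 8 and the 4 came without replicate 3 of siNCOA4+DFO, and the 7 without replicate 1 or replicate 2 of siControl+DFO.

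Values of the 10 genes that changed sign passed the test neither before nor after. In siNCOA4+DFO against siControl+DFO, Cdk4 was 0.15 under quantile scaling and 0.12 when scaled without small RNA genes (limma adjusted p = 0.227 and 0.28), and −0.044 to 0.064 when each library was left out. Cdk6 was 0.076 when scaled without small RNA genes and −0.16 to 0.14 when each library was left out, with the 0.14 without replicate 3 of siControl+DFO. Cdk2 with siNCOA4 was 0.032 when scaled without small RNA genes and −0.14 to 0.027 when each library was left out, and with DFO −0.11 to 0.060. The interactions ranged from −0.052 to 0.10 for Ccnd2 and from −0.046 to 0.072 for Cdkn1b. The cause was not tested. Scaling without small RNA genes moved the median of all genes to 0.12 in that comparison and to 0.10 for both treatments against siControl. That scaling divides each library by a single factor, so it shifts all genes nearly alike. With each setting's own median of all genes subtracted, the 10 genes moved by at most 0.003 in these 2 comparisons. This small move follows from the arithmetic and is no check of the results. Quantile scaling, which is not bound in this way, moved them by up to 0.25 (Cdk4, both treatments against siControl).

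Same-numbered replicates of different groups had correlations of −0.127 to 0.116 in their deviations from the group means, 2 of 18 over 0.1, and 2 of 12 libraries correlated best with their own number. Pairing by number was thus not seen, and whether same-numbered libraries shared a culture or day is not known. With the replicate block the counts of the 10 genes were 4, 6, 8, 4, 5 and 2, as without it. The reads behind each FPKM are unknown, so what depth limits cannot be stated. The lowest library value among the 10 genes was 5.86 FPKM.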
